A study of Homo sapiens with 22 samples.

Results

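The 9 HOXC genes (HOXC4, HOXC5, HOXC6, HOXC8, HOXC9, HOXC10, HOXC11, HOXC12 and HOXC13) were followed across every deposited peak list of A673 and CHLA10 cells. They were chosen by name, and all 9 were found among 19974 protein-coding genes of the RefSeq table. They occupy chr12:53938831-54056030 (hg38), a stretch of 117.2 kb with no other protein-coding gene. For each gene, peaks over the gene or within 1 kb of it were taken from 18 lists, and HOXD13 peaks were also taken within 100 kb.

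A673 and CHLA10 are established lines of Ewing sarcoma, a tumour of bone and soft tissue driven by an EWSR1 fusion protein. The libraries were made by CUT&RUN, in which an antibody tethers a nuclease that cuts out the chromatin it is bound to. The marks H3K4me3, H3K4me1 and H3K27me3 (antibodies at 1:100) and H3K27ac (at 1:50) had 2 libraries each in A673 and in CHLA10, from cells carrying the label shNS. The transcription factor HOXD13 (antibody at 1:20) was profiled in 1 library per line, without that label, so each setting of HOXD13 peaks beside marks compares differently labelled cells. The labels give no other treatment or genotype, and they do not say whether replicates were separate cultures. Read depth is not known from the files, which give peaks without counts.

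HOX genes encode homeodomain transcription factors that pattern the body from head to tail, and their order along the chromosome follows their order of use along that axis. Polycomb complexes lay down H3K27me3 over silent HOX genes, whereas H3K4me3 marks the promoters of active or poised genes. H3K27ac marks active promoters and enhancers, and H3K4me1 is spread over enhancers and the flanks of promoters. The HOXC cluster also holds RNA genes, among them HOTAIR, a long non-coding RNA known for its link to Polycomb, and the microRNA genes MIR196A2 and MIR615.

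HOXC4, HOXC5 and HOXC6 overlap and begin at the same base in the RefSeq table, chr12:54016888, so they share most of their peaks and are not separate observations. A promoter sequence was held for 2 of the 9 genes, HOXC4 and HOXC5, which have the same window. The 250 bases before their start (RefSeq, GRCh38.p14, plus strand, chr12:54016638-54016887) are shown because H3K4me3 peaks covered all of them in all 4 libraries, and because an A673 HOXD13 peak lay 1.05 kb after the start. The capitals mark matches to letters of known HOX group 13 sites.

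HOXC4 and HOXC5 promoter: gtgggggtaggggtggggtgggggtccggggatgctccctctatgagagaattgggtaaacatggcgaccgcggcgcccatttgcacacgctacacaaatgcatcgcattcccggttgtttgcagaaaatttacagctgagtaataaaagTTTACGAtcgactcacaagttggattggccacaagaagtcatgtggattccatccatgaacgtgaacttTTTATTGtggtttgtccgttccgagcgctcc

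The run TTTACGA is TCGTAAA read on the other strand, and it lay 93 bases before the start. The run TTTATTG is CAATAAA read on the other strand, and it lay 24 bases before the start. Over 34943 different promoter windows of the same length, searched on both strands, TCGTAAA was present in 0.438% and CAATAAA in 3.67%. Both were present together in 8 windows (0.0229%), of which this was 1. The PBX-HOX letters TGATTGA (in 1.79% of windows) and the paired ETS letters GGAAGGA (in 9.66%) were not in this window. No HOXD13 peak of either line overlapped the window itself, and a match of letters is no measure of binding. The 250 bases before the RNA gene LOC105369775, beside HOXC12, were searched in the same way and held none of these letters.

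The 2 microRNA genes of the cluster lay beside line-specific peaks described below, so their mature products are shown with the seed, bases 2 to 8, in capitals (RefSeq, GRCh38.p14).

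hsa-miR-196a-5p: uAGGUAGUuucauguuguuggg
hsa-miR-196a-3p: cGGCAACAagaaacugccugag
hsa-miR-615-5p: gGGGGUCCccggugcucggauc
hsa-miR-615-3p: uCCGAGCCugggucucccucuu
hsa-miR-196b-5p: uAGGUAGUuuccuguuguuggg

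The last of these comes from MIR196B in the HOXA cluster on chromosome 7. It shares the seed AGGUAGU with hsa-miR-196a-5p and differs from it by A12C, with miR-196a's base first and positions counted from the 5′ end. The same hsa-miR-196a-5p is also made from MIR196A1 at the HOXB cluster on chromosome 17. The miR-196 family is known to target several HOX messages.

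H3K27me3 was absent from the peak lists at all 9 HOXC genes in both lines. The count was 0 of 9 in each library, where 18.2% (A673 replicate 1), 20.7% (A673 replicate 2), 17.6% (CHLA10 replicate 1) and 18.1% (CHLA10 replicate 2) of all protein-coding genes had a peak. All 9 were without H3K27me3 in all 4 libraries, as were 72.2% of all protein-coding genes. A lack of this mark is thus common among genes, and the values that follow give how far it reached around the cluster. The nearest H3K27me3 peaks in A673 replicate 1 lay 29.6 kb before and 32.5 kb after the cluster. In A673 replicate 2 they lay 6.21 kb before and 621 kb after it. In CHLA10 replicate 1 they lay 1084 kb before and 15.4 kb after it, and in CHLA10 replicate 2 141 kb before and 697 kb after it. The peaks within 100 kb had folds between 3.22 and 5.18 in A673 and between 3.84 and 4.18 in CHLA10 (the authors' enrichment over the caller's background), where the list medians were 3.95 and 3.64 in A673 and 3.88 and 4.01 in CHLA10. The peak-free stretch reached past both ends of the cluster in every library.

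Before the cluster, 5 merged H3K27me3 regions that reached within 100 kb were in both A673 libraries and neither CHLA10 library (11.8% of merged H3K27me3 regions across the genome were A673 only). The nearest of them, chr12:53904996-53909347, ended 29.6 kb before HOXC13 in replicate 1 and at nearly the same place in replicate 2, with folds of 4.88 and 4.19 at percentiles 89.8 and 81.2 of the lists by q-value. The next, chr12:53899128-53903827, had folds of 5.18 and 5.09 at percentiles 93.6 and 94.9. The peak 6.21 kb before the cluster was in A673 replicate 2 only, at percentile 7.07. Of the 5 regions in both A673 libraries, the farthest came within 100 kb only through its replicate 2 peak. Within that reach before the cluster, the A673 lists held 5 and 8 H3K27me3 peaks and the CHLA10 lists 0 and 0. After the cluster, no H3K27me3 region within 100 kb was in both libraries of a line.

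**Figure D1:**
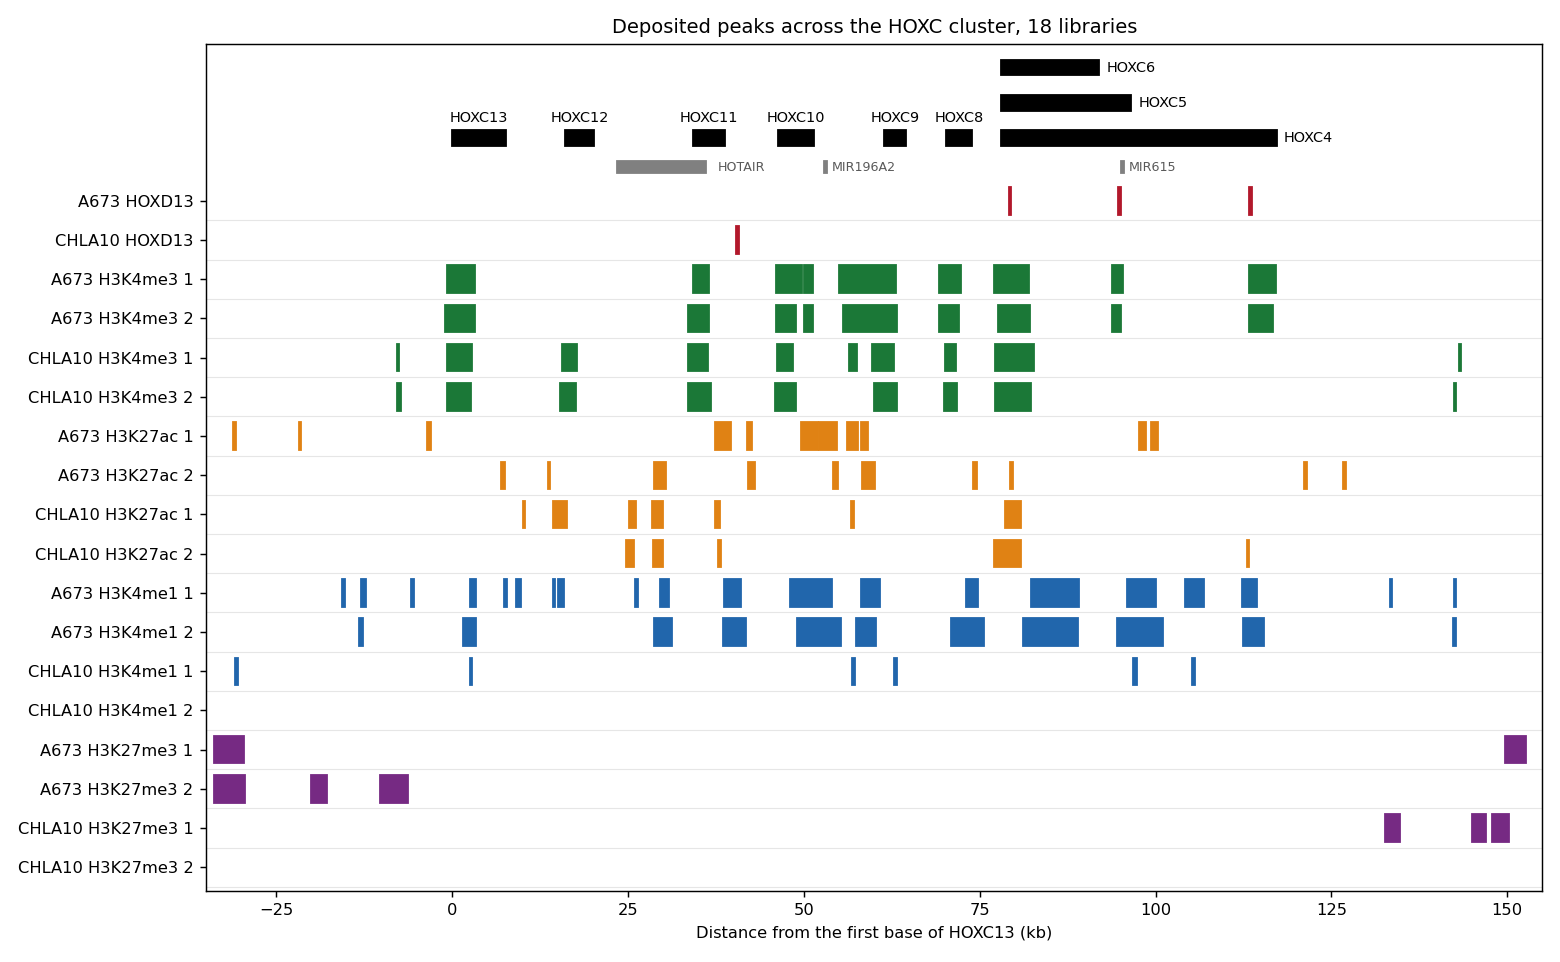
Peaks of the 18 deposited lists along the HOXC cluster, with the distance from the first base of HOXC13 in kb on the horizontal axis and 1 row per library (line, target, replicate number). Black boxes are the 9 HOXC genes, grey boxes are 3 RNA genes, and features under 0.35 kb are drawn at that width. H3K4me3 peaks sit at nearly every gene in both lines, H3K4me1 peaks sit almost all in A673, and no H3K27me3 peak lies inside the cluster.

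The other HOX clusters were not alike in this mark. Each cluster was measured from the first to the last base of its HOX genes: 107.1 kb for HOXA, 200.2 kb for HOXB, 117.2 kb for HOXC and 103.4 kb for HOXD. The HOXB span includes a long stretch without HOXB genes, which lowers its percents for marks that sit at the genes. H3K27me3 peaks covered 93.8% ± 4.80 (SD, n = 2) of the HOXA cluster in A673 and 55.6% ± 2.03 (n = 2) in CHLA10. They covered 4.13% ± 1.76 of HOXB in A673 and 5.09% ± 1.17 in CHLA10, and 0.336% ± 0.475 of HOXD in A673 and 0% in both CHLA10 libraries. For HOXC the value was 0% in all 4 libraries. All 11 HOXA genes had the mark in at least 1 library, against 2 of 10 HOXB genes (HOXB8 and HOXB9) and 2 of 9 HOXD genes (HOXD1 and HOXD13). HOXA is thus the only cluster of the 4 with H3K27me3 over most of its length in these lists, and HOXB and HOXD were closer to HOXC than to HOXA.

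**Figure D2:**
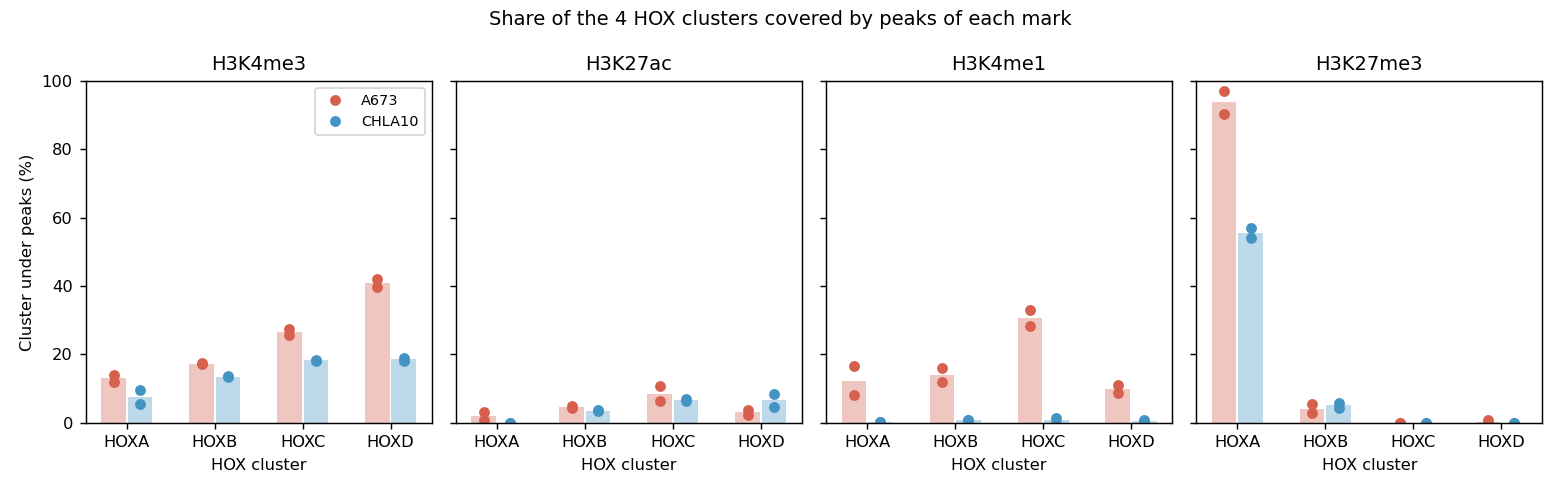
Percent of each of the 4 HOX clusters lying under peaks, with 1 panel per mark, bars for the mean of 2 libraries and points for the libraries. HOXC is at 0% for H3K27me3, at 26.5% (A673) and 18.3% (CHLA10) for H3K4me3, and at 30.8% (A673) and 0.710% (CHLA10) for H3K4me1.

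H3K4me3 was present at nearly every HOXC gene. In A673, 8 of 9 had a peak in both libraries (69.6% of all protein-coding genes did). In CHLA10 all 9 did, against 69.9% of all genes. The same 8 were marked in all 4 libraries, against 66.7% of all genes, and those 8 had H3K4me3 in all 4 and H3K27me3 in none, against 55% of all genes. The corresponding counts were 0 of 11 HOXA, 6 of 10 HOXB and 3 of 9 HOXD genes. The exception was HOXC12. It had no H3K4me3 peak in either A673 library and 1 in each CHLA10 library, a pattern found at 2.4% of all protein-coding genes. No HOXC gene had H3K4me3 in both A673 libraries only (1.68% of all genes did). This count is by whole gene window. HOXC5 and HOXC4 were counted in CHLA10 only through the region over the start they share with HOXC6. Regions further inside these genes, described below, were in A673 only.

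The peaks of the 4 libraries, merged where they overlapped, gave 10 H3K4me3 regions in the cluster. Of these, 6 were in all 4 libraries (49.4% of merged regions across the genome were), 3 were in both A673 libraries only (4.6%) and 1 was in both CHLA10 libraries only (10.2%). The A673 lists run to higher folds in general, with list medians of 23.5 and 21.1 in A673 and 13.6 and 12.7 in CHLA10. A fold is therefore given below as a value within its own list, and its size is not compared between lines. In every list most of the cluster's peaks were above the list median: 7 of 9 and 8 of 9 in A673, and 7 of 8 and 6 of 7 in CHLA10.

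Among the posterior genes, HOXC13, which is known for its part in hair and nail formation, carried 1 region over its lower-coordinate end and the antisense HOXC13-AS (chr12:53937835-53942139). Its folds were 76.5 and 69.3 in A673 and 32.4 and 32.8 in CHLA10, the highest of the cluster in both CHLA10 lists and in A673 replicate 2. Replicates lay close together in both lines. With no strand in the table, signal of HOXC13 and of HOXC13-AS cannot be told apart.

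The HOXC12 region, chr12:53954175-53956535, had folds of 20.8 and 17.6 in CHLA10 and no peak in either A673 library. It was above the medians of both CHLA10 lists, at their percentiles 57.1 and 55.9 by q-value. It also lay over the RNA gene LOC105369775, of which the CHLA10 H3K4me3 peaks covered 63.2% and 72.4%. Signal of HOXC12 and of LOC105369775 cannot be told apart. CHLA10 replicate 1 had an H3K27ac peak (fold 8.37) over the same stretch, which replicate 2 did not have. The CHLA10 H3K4me3 peaks covered 33.5% and 36.4% of the HOXC12 window, the gene with 1 kb on each side.

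HOXC11 shared its region, chr12:53972360-53975582, with HOTAIR, whose gene overlaps it, and the 2 cannot be told apart. The folds were 40.4 and 45.2 in A673 and 16.7 and 19.4 in CHLA10. The peaks covered 36.0% and 45.4% of the HOXC11 window in A673 and 44.1% and 49.4% in CHLA10, so the lines overlapped.

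HOXC10, active in hindlimb-level motor neurons, had a region over its lower-coordinate end and HOXC-AS3 (chr12:53984708-53988582). Here the replicates did not lie together: the folds were 38.7 and 16.2 in A673 and 25.6 and 7.47 in CHLA10. A separate region over the higher-coordinate part of the gene, chr12:53988855-53990062, was in A673 only, with folds of 12.8 and 21.9, at percentiles 39.03 and 46.3 of its lists by q-value. When peaks up to 1 kb apart were joined, it became part of the region before it. The covered share of the HOXC10 window was 69.1% and 55.8% in A673 and 31.5% and 42.1% in CHLA10, and the lines did not overlap.

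The widest H3K4me3 peaks in the A673 cluster lay at HOXC9, a thoracic-level gene. The merged region, chr12:53993869-54002072, ran over HOXC-AS2, HOXC-AS1 and HOXC9, with A673 folds of 90.6 and 34.4. The A673 peaks were 8.03 kb and 7.68 kb wide, and 99.6% and 99.5% of the peaks in their lists were narrower. In CHLA10 replicate 1 the stretch held 2 peaks, and in replicate 2 it held 1 of 3.31 kb, with folds of 17.0 and 14.1. The HOXC9 window itself was covered to a like extent, 52.8% and 56.2% in A673 and 48.7% and 56.2% in CHLA10, so the added A673 length lay outside that window. HOXC-AS1 was fully covered in all 4 libraries. HOXC-AS2 was fully covered in both A673 libraries, to 74.5% in CHLA10 replicate 1 and not at all in CHLA10 replicate 2.

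HOXC8, the other gene of the middle of the cluster, had 1 region (chr12:54007976-54011145) with folds of 24.0 and 22.0 in A673 and 12.2 and 25.4 in CHLA10. The CHLA10 replicates lay further apart than those of A673. The peaks were 3.17 kb and 2.94 kb long in A673 and 1.66 kb and 1.91 kb long in CHLA10, and this length did not overlap.

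The anterior genes HOXC6, HOXC5 and HOXC4 shared the region over their common first base, chr12:54015906-54021528. Its folds were 35.9 and 35.2 in A673 and 25.4 and 25.3 in CHLA10, with replicates almost equal in each line. It held the widest CHLA10 peaks of the cluster, 5.56 kb and 5.06 kb, wider than 98.3% and 97.2% of their lists.

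The other 2 A673-only regions lay further along the anterior genes. The region chr12:54032659-54034160, inside HOXC5 and HOXC4 and reaching MIR615, had folds of 13.4 and 23.1. The region chr12:54052052-54055905, near the far end of HOXC4, had folds of 63.8 and 57.2 and lay at percentiles 79.8 and 78.9 of the A673 lists. The CHLA10 lists had no H3K4me3 peak at either. The last region was by far the stronger, and it was the one of the 3 A673-only regions that remained when each list was cut to its upper 50% by q-value. Exons are not in the table, so whether these regions sit at internal exons or starts was not tested.

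**Figure D3:**
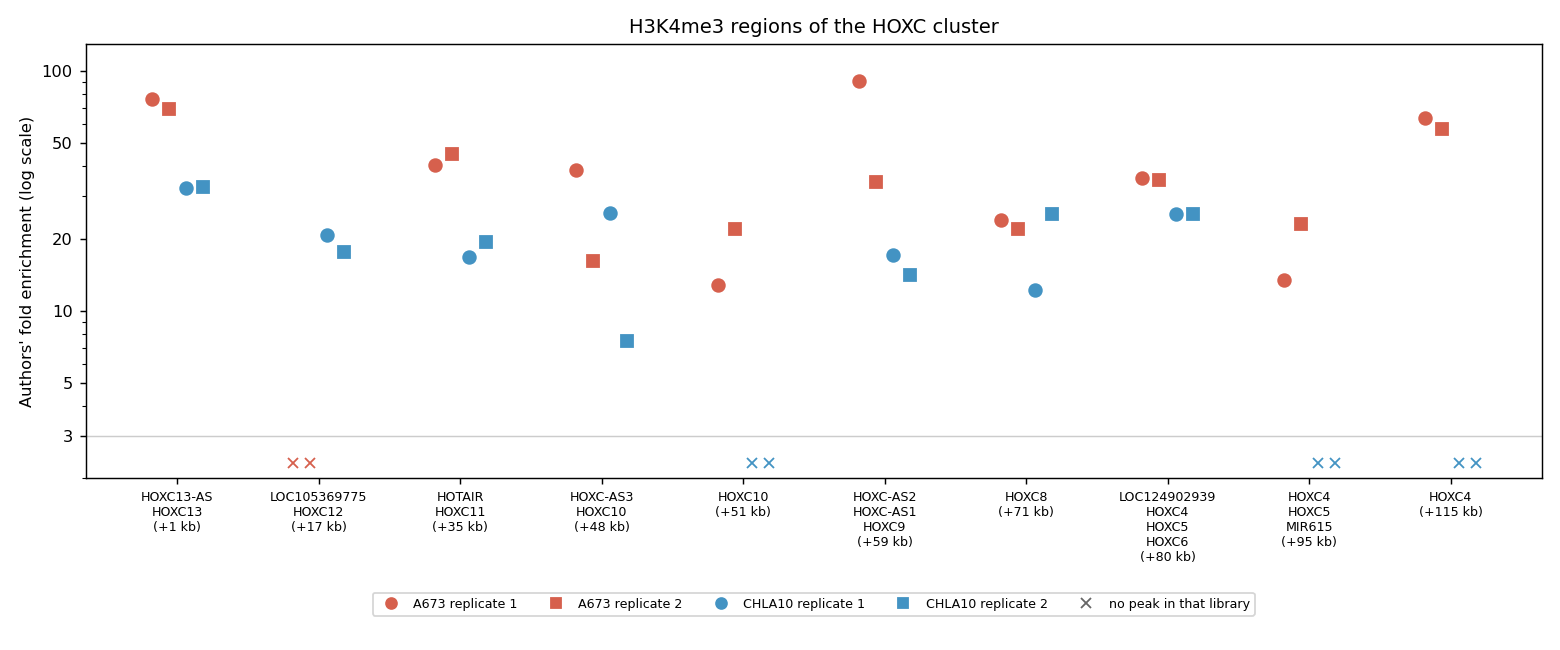
The authors' fold enrichment (log axis) of the strongest H3K4me3 peak in each of the 10 merged regions, ordered along the chromosome, with the genes touched and the distance from the first base of HOXC13. Circles and squares are replicates 1 and 2, and crosses mark libraries with no peak. The HOXC12 region has crosses for A673 only, and the regions at +51, +95 and +115 kb have crosses for CHLA10 only.

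H3K4me3 peaks covered 27.4% and 25.6% of the cluster in A673 (26.5% ± 1.24, SD, n = 2) and 18.4% and 18.2% in CHLA10 (18.3% ± 0.127). The lines did not overlap. By gene, the covered share of the window was higher in both A673 than in both CHLA10 libraries at 5 of 9 genes (HOXC13, HOXC10, HOXC8, HOXC5 and HOXC4), against 24.4% of all protein-coding genes. It was higher in both CHLA10 libraries at 2 genes (HOXC12 and HOXC6), against 22.6%. With 2 libraries against 2, the smallest p of an exact two-sided permutation test is 0.33. No mark was therefore tested between lines, and these counts describe the libraries. The other HOX clusters were also covered more in A673 on average, most of all HOXD, at 40.8% ± 1.68 against 18.6% ± 0.689.

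HOXD13, a posterior HOX factor encoded on another chromosome, had 3 peaks in the cluster in A673 and 1 in CHLA10, and none was shared. Within 1 kb of a gene, the A673 peaks reached 3 of 9 HOXC genes (HOXC4, HOXC5 and HOXC6), against 12.2% of all protein-coding genes, and the CHLA10 peak reached 0 of 9, against 3.8%. Since the 3 genes overlap, the A673 count rests on the same peaks. Within 100 kb, all 9 genes had a peak in A673 (38.8% of all genes) and in CHLA10 (11.6%), but those counts come from the same 3 peaks and the same single peak. Each line had 1 HOXD13 library, so a difference between lines has no replicate check.

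The strongest A673 HOXD13 peak of the cluster, chr12:54033493-54033793, lay inside HOXC5 and HOXC4, 0.157 kb from MIR615. Its fold was 30.6 and its −log10 q was 66.0, rank 115 of 7160 peaks. The next, chr12:54052174-54052446, near the far end of HOXC4, had a fold of 27.02 and a −log10 q of 56.1, rank 178. The weakest, chr12:54017936-54018089, had a fold of 4.97 and a −log10 q of 8.37, rank 5441. Both strong peaks lay inside the A673-only H3K4me3 regions of the anterior genes, and the weak one lay inside the region over the shared start that all 4 libraries held.

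Of the A673-only H3K4me3 regions across the genome, 4.29% of 1305 held an A673 HOXD13 peak, and of the regions in all 4 libraries 3.82% did. In the cluster it was 2 of 3 and 1 of 6. The regions were noticed in these lists before they were counted, so the cluster's share is a description. The H3K4me1 lists of A673 also had peaks over the HOXC4 site in both replicates and over the MIR615 site in replicate 2.

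The CHLA10 HOXD13 peak, chr12:53979193-53979316, lay between HOXC11 (1.55 kb away) and HOXC10 (5.83 kb away). Its fold was 2.69 and its −log10 q was 6.96, rank 1905 of 2099, so it was among the weaker of its list. No CHLA10 mark overlapped it, and both A673 H3K4me1 lists did. It was not among the upper 50% of its list by q-value. The other HOX clusters, with 1 kb on each side, held fewer peaks: HOXA 0 in both lines, HOXB 1 in A673 (−log10 q 7.44) and 0 in CHLA10, and HOXD 1 in A673 (24.3) and 0 in CHLA10. Within 100 kb, HOXD had 1 peak in CHLA10 as well, with a −log10 q of 64.1, and the other counts were the same.

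H3K27ac lay beside the genes as much as on them, and replicates differed more than for H3K4me3. In A673, 3 of 9 genes had a peak in replicate 1 (HOXC11, HOXC10 and HOXC4, against 49.8% of all genes) and 5 in replicate 2 (HOXC13, HOXC8, HOXC6, HOXC5 and HOXC4, against 53.8%). HOXC4 alone had one in both (38.7% of all genes), and it did so through different peaks. In CHLA10, 5 genes had a peak in replicate 1 (50.8%) and 4 in replicate 2 (38.1%). The 4 with one in both were HOXC11, HOXC6, HOXC5 and HOXC4, against 35.1% of all genes. HOXC6, HOXC5 and HOXC4 were counted through the same peaks over their shared start. The HOXC11 peaks were weak, with folds of 2.88 and 2.59 at percentiles 16.1 and 1.33 of the lists by q-value. The count was 3 in the upper 50% of each list and 3 in lists of equal peak number.

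Over the shared start of the anterior genes (chr12:54015902-54019767) CHLA10 had H3K27ac folds of 7.19 and 5.87, A673 replicate 2 had 6.42 and A673 replicate 1 had no peak. The CHLA10 peaks were 2.33 kb and 3.79 kb long and that of A673 replicate 2 was 0.45 kb. The covered share of the window was accordingly higher in both CHLA10 than in both A673 libraries at HOXC6, HOXC5 and HOXC4, 3 of 9 genes, against 18.3% of all protein-coding genes. The opposite held for 0 of 9 genes (18.3% of all genes).

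Of 17 merged H3K27ac regions in the cluster, 13 were neither in all 4 libraries nor in both libraries of a single line only. In both A673 libraries and neither CHLA10 library there were 3, and all lay between HOXC11 and HOXC9. The region chr12:53980731-53981931 had folds of 8.19 and 10.3 and touched no gene. The region chr12:53991017-53993712 had folds of 13.2 and 12.3 and held MIR196A2. The region chr12:53997008-53998980 had folds of 11.6 and 12.9 and lay before HOXC9. They ranked high in both lists, at percentiles 87.3 to 97.8 by q-value. Across the genome, 4.43% of merged H3K27ac regions were in both A673 libraries only. The MIR196A2 hairpin itself lay under the peak in replicate 1 and not in replicate 2, and no H3K4me3 peak of either line covered it.

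HOTAIR held the 1 region found in both CHLA10 libraries only, chr12:53963519-53964900, with folds of 3.20 and 3.91 (9.12% of merged regions across the genome were CHLA10 only). A stronger region inside HOTAIR, chr12:53967226-53969216, had folds of 10.3 and 7.87 in CHLA10 and 11.01 in A673 replicate 2, with no peak in A673 replicate 1. H3K27ac covered 10.7% and 6.25% of the cluster in A673 and 6.91% and 6.25% in CHLA10. The lines overlapped.

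H3K4me1 peaks lay over HOXC genes in A673 and hardly at all in CHLA10. In A673, 9 of 9 genes had a peak in replicate 1 (65.8% of all genes), 7 in replicate 2 (46%) and 7 in both (43.3%). In CHLA10, 4 had one in replicate 1 (HOXC13, HOXC9, HOXC5 and HOXC4, against 28.3%), 0 in replicate 2 (26.2%) and 0 in both (17.9%). HOXC11, HOXC10, HOXC8 and HOXC6 had the mark in both A673 libraries and neither CHLA10 library, 4 of 9 against 16.3% of all genes. The covered share was higher in both A673 than in both CHLA10 libraries at 7 of 9 genes, all but HOXC12 and HOXC9, against 38.4% of all genes. The lists themselves differ in length: A673 H3K4me1 peaks covered 74.5 and 51.6 Mb of the genome and CHLA10 peaks 9.63 and 11.3 Mb. The part of that difference in the cluster's values was not tested beyond lists cut to 20956 peaks each. That cut left 26.2% of the cluster covered in A673 and 0.605% in CHLA10. It left 5 genes marked in both A673 libraries and 3 in A673 only.

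Uncut, H3K4me1 covered 28.4% and 33.1% of the cluster in A673 and 1.42% and 0% in CHLA10. Over the spans used here this was the highest A673 mean of the 4 HOX clusters, 30.8% ± 3.32. The others were 12.3% ± 5.98 for HOXA, 14.0% ± 3.01 for HOXB and 9.83% ± 1.53 for HOXD. The HOXB value is over 200.2 kb, and coverage without its long stretch lacking HOXB genes was not computed. Whether HOXC would still be above a shorter HOXB span was therefore not tested. Of 17 merged regions, 7 were in both A673 libraries only (13.7% of merged H3K4me1 regions across the genome were). The longest, chr12:54019937-54028008, ran through HOXC6, HOXC5 and HOXC4 and began within the H3K4me3 region at their start, with folds of 18.6 and 17.1. The region before HOXC9, chr12:53996174-53999633, had the highest folds, 27.2 and 22.2, and contained the A673-only H3K27ac region there. The region over HOXC10 and MIR196A2, chr12:53986834-53994064, had folds of 4.53 and 21.5, a wide spread between replicates. At HOXC8 (chr12:54009813-54014432) the folds were 13.6 and 10.95. The CHLA10 HOXD13 peak lay under the A673-only region after HOXC11, chr12:53977270-53980542, with folds of 10.2 and 10.99.

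**Figure D4:**
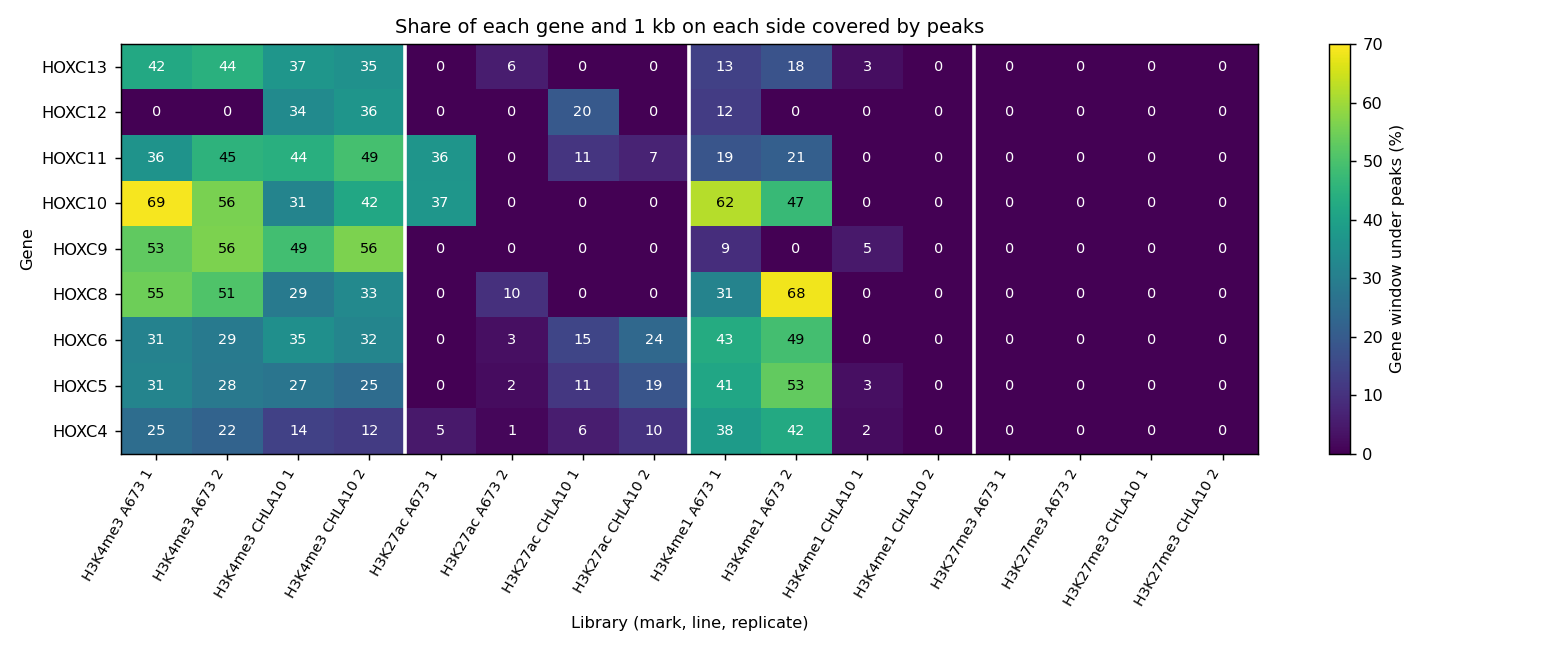
Percent of each HOXC gene window (the gene and 1 kb on each side) lying under peaks, with genes in chromosome order down the side and the 16 histone libraries across, colour and number both giving the value. The HOXC12 row is at 0 for H3K4me3 in both A673 libraries, the H3K4me1 columns hold values above 0 at 9 and 7 genes in A673 and at 4 and 0 in CHLA10, and the H3K27me3 columns are 0 throughout.

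The median covered share over the 9 genes exceeded that over all protein-coding genes for H3K4me3 in each library, from 33.5% to 44.3% beside 3.15% to 3.31%. The windows ran from 5.18 kb (HOXC9) to 41.1 kb (HOXC4), and the part of gene length in these shares was not tested. By the pattern of covered shares over the 16 histone libraries, the genes elsewhere most like the mean of the 9 were LDHB (Pearson r 0.993), TBC1D7 (0.991), UHRF2 (0.990), TMEM9 (0.989) and MGAT4B (0.988). Among other HOX genes the most like was HOXB6, at 0.973. Among the 9 genes themselves r ran from 0.918 at HOXC13 to 0.471 at HOXC12. Each of the 9 is part of the mean it was set against, so these values are not comparable with those of other genes. The libraries share marks and lists, so r describes a common layout, with H3K4me3 in both lines and H3K4me1 in A673.

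The nearest protein-coding genes on each side carried H3K4me3 in all 4 libraries, but none was close. They were ATP5MC2 (257 kb away) and CALCOCO1 (211 kb) before the cluster, and SMUG1 (102 kb) and CBX5 (175 kb) after it. CBX5 encodes a heterochromatin protein. CALCOCO1 had an H3K27me3 peak in A673 replicate 1, and the other 3 had none in any library. The complexes that add and remove these marks, and the partners that bind DNA with HOX proteins, are known regulators or cofactors at HOX clusters. H3K4me3 was in all 4 libraries at 21 of 21 Polycomb genes, 11 of 11 Trithorax and demethylase genes and 9 of 9 genes of the HOX cofactors PBX, MEIS and PKNOX, against 66.7% of all genes. H3K27me3 was in no library at 20 of 21, 10 of 11 and 5 of 9 of them, against 72.2%. Ewing sarcoma markers had H3K4me3 in all 4 libraries at 12 of 12 genes. Markers of other cell types had it at 0 of 5 haematopoietic, 1 of 5 epithelial (KRT8), 1 of 4 endothelial (KDR) and 0 of 4 muscle genes.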

How the data were processed

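The 18 deposited peak lists (hg38) are from 16 histone libraries and 2 HOXD13 libraries. The 4 IgG libraries were not analysed here as lists. Bowtie2, MACS2, SEACR 1.2 and bedtools are named in the submitters' processing notes, with no role given. Per the file headers and peak names, calls were made per library, narrow against IgG for H3K4me3, H3K27ac, H3K4me1 and HOXD13, and broad with no control for H3K27me3, whose shortest peak is 2000 bp. In each list the authors gave a score, a fold enrichment (a ratio), −log10 p and −log10 q values, and for narrow peaks a summit offset, which was not used. The numbering of deposited peaks skips values, so each list is a subset chosen by a criterion not given in the sources used here. The lists hold between 17909 and 106770 peaks for the marks, and 7160 (A673) and 2099 (CHLA10) for HOXD13.

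A gene was marked in a library when a peak overlapped the gene or 1 kb on each side by at least 1 bp, and in a line when both libraries had one. Coverage is the percent of bases under peaks. Gene boundaries came from RefSeq (GRCh38.p14) without strand or exons. The members and lists were chosen with earlier results of these data known. Named by rule were the 9 genes, RNA genes inside the cluster, 2 neighbouring protein-coding genes on each side, and the 5 genes over 200 kb from the cluster with the highest Pearson r. Other HOX, cofactor and regulator genes were named only where a count of 5 or fewer lists them. Scripts (Python 3.11.15, pandas 2.3.3, numpy 2.4.6) were tested on simulated peaks. Alternatives were the flank, the overlap, the upper 50% of each list, lists of equal peak number, the HOXD13 reach, and leaving out each library. If replicates were technical, SDs measure only that spread.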

Additional observations from a re-analysis of the deposited data

How the results depend on the processing

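Of 230 alternative values for 32 results, 212 stayed close to the value given above and 18 moved. A count of genes, peaks or regions moved when it changed by over 1.5 times, and a percent covered moved when it changed by more than 1 SD of the replicates. H3K27me3 was at 0 genes in both lines under each alternative run, but none of them could have changed this. The cuts and omissions add no peak, and 5 kb on each side ends short of the nearest peak, 6.21 kb before the cluster. Other values could not move either. Leaving out 1 of 2 libraries never shifts their mean percent by more than 1 SD of the 2. Leaving out an A673 library cannot change the percent covered or the genes marked in CHLA10, nor the reverse. All of these fixed values are counted among the 212, so that number is no measure of robustness. Leaving out any 1 library kept the H3K4me3 counts at 8 genes in A673 and 9 in CHLA10. In the upper 50% of each list by −log10 q these counts were 7 in A673 and 7 in CHLA10. The H3K4me3 regions found in all libraries then fell from 6 to 4. With 5 kb on each side, H3K27ac marked 6 genes in A673 (1 as reported) and 6 in CHLA10 (4 as reported). It marked 1 gene in A673 only and 0 in CHLA10 only. The share of all genes at that flank was not counted. With each list cut to its upper 50% by −log10 q, H3K4me3 covered 23.0% of the cluster in A673 and 15.8% in CHLA10, H3K27ac covered 4.98% in CHLA10, CHLA10 had 0 HOXD13 peaks, and 1 H3K4me3 region was in A673 only. With lists of equal peak number, H3K27ac covered 5.85% in CHLA10 and H3K4me1 26.2% in A673. Leaving out 1 library gave 1 to 5 genes with H3K27ac in A673, 0 to 2 in A673 only and 0 to 2 in CHLA10 only. Those extremes came without A673 H3K27ac replicate 1 (5 genes, and 2 in A673 only) and without replicate 2 (3 genes in A673, and 2 in CHLA10 only). It gave 4 to 7 genes with H3K4me1 in A673 only (7 without CHLA10 replicate 1) and 0 to 4 in CHLA10 (4 without replicate 2). The alternatives for merged H3K4me3 regions were chosen after seeing the data. The alternative around gene starts was not run, since a start was held for only 2 of 9 genes. No paired analysis was possible because the results come from peak lists and no test. Depth is unknown, so a missing peak is not an absent mark.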

Other observations

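Outside the cluster, within 100 kb of it, the strongest H3K4me3 region was at the RNA genes FAM242C and LINC02381 (chr12:54125382-54127490), singled out after its values were seen. Its folds were 27.3 and 23.0 in CHLA10, 4.65 in A673 replicate 2, and A673 replicate 1 had no peak there. On the other side, chr12:53844181-53846428 inside the RNA gene LOC105378250 had H3K27ac in both CHLA10 libraries (folds 8.12 and 6.10) and in neither A673 library. H3K4me1 lay over the same stretch in both A673 libraries (9.28 and 5.70) and in CHLA10 replicate 2 (4.55), and H3K4me3 in CHLA10 replicate 1 (4.97). The long RNA gene FLJ12825, which starts 2.22 kb after the cluster, had H3K27me3 peaks in CHLA10 replicate 1 (3 peaks) and A673 replicate 1 (1 peak) and in neither other library. It had no H3K4me3 peak in either A673 library and 1 in each CHLA10 library, with folds of 4.54 and 3.84.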
